A study of Homo sapiens with 6 samples.

Results

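Apoptosis genes of A549 cells were compared with and without glucose: 40 genes of the BCL2 family, the death receptors and their adaptors, the caspases, the proteins that act once mitochondria leak, and the inhibitors. They were chosen by gene symbol and known role, and all 40 were among the 19240 genes of the count table. A549 is an established human lung carcinoma line, and every library comes from that line alone. The cells were held for 48 h either in 25 mM glucose or without it, and 3 libraries per group were sequenced from transcript 3' ends. The labels do not state whether replicate libraries were grown as independent cultures; the p-values therefore describe library-to-library spread, possibly technical. The series concerns PCK2 and how tumor cells adapt to missing glucose; death genes are followed here because cells without glucose must either adapt or die.

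Apoptosis runs along a mitochondrial and a receptor route. In the mitochondrial route, BH3-only proteins sense damage and stress, block the anti-apoptotic BCL2 proteins and activate BAX and BAK1, which open the outer mitochondrial membrane. Cytochrome c then assembles APAF1 and caspase 9. In the receptor route, FAS and the receptors for the ligand TRAIL recruit the adaptor FADD and caspase 8. XIAP and its relatives restrain caspases, and CFLAR (FLIP) restrains caspase 8. Much of this control acts on proteins, through cleavage, binding and phosphorylation, which counts of transcripts do not measure. Counting from 3' ends also does not separate the pro- and anti-apoptotic splice forms of genes such as BCL2L1, MCL1 and CFLAR.

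Without glucose, 6 apoptosis genes rose and 2 fell. Those that rose were 3 death receptor genes (TNFRSF10D, TNFRSF10B and FAS), 2 inhibitors (XIAP and CFLAR) and the BH3-only gene HRK. The genes that fell were BID, which links the receptor and the mitochondrial route, and CASP2, an initiator caspase. The other 31 tested genes did not pass, among them every anti-apoptotic BCL2 gene, BAX, BAK1, BOK, CASP8, CASP9, CYCS and APAF1. By the edgeR quasi-likelihood test at an adjusted p under 0.05, 8 of 39 tested apoptosis genes passed, or 20.5%, against 22.3% of all 11886 genes tested. In the higher direction the shares were 15.4% of the apoptosis genes and 11.6% of all genes, and in the lower direction 5.13% and 10.7%. The share of apoptosis genes that passed was thus near that of all genes. The groups did not overlap for 18 of the 39 genes (46.2%), against 40.4% of all genes; 9 were higher and 9 lower without glucose, where the shares of all genes were 21% and 19.4%. The median log2 fold change was 0.03 over the apoptosis genes and 0.02 over all genes tested.

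BIK, a BH3-only gene, did not pass the filter on low counts, with 21 reads over the libraries with glucose and 9 without. HRK, BCL2 and TNFRSF10C reached the filter's level in 1 library with glucose and in all 3 without, so they were tested only because of the group without glucose. HRK is among the 6 genes that rose. The number that fell was less stable than the number that rose. Leaving out the first no-glucose library gave 0, leaving out any other library gave 1, and DESeq2 gave 5 (BID, CASP2, BAD, PMAIP1 and TNFRSF1A). The share of all genes that passed was 26.3% by DESeq2, 22.2% with DESeq2 size factors in edgeR, 22.5% with library totals, 19.2% with no filter, 23.4% with a mean of 20 or more counts and 15.9% with a replicate block. On leaving out replicates 1, 2 and 3 with glucose it was 20.9%, 14.4% and 14.9%, and on leaving out those without glucose 16.4%, 18.6% and 13.8%.

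**Figure D1:**
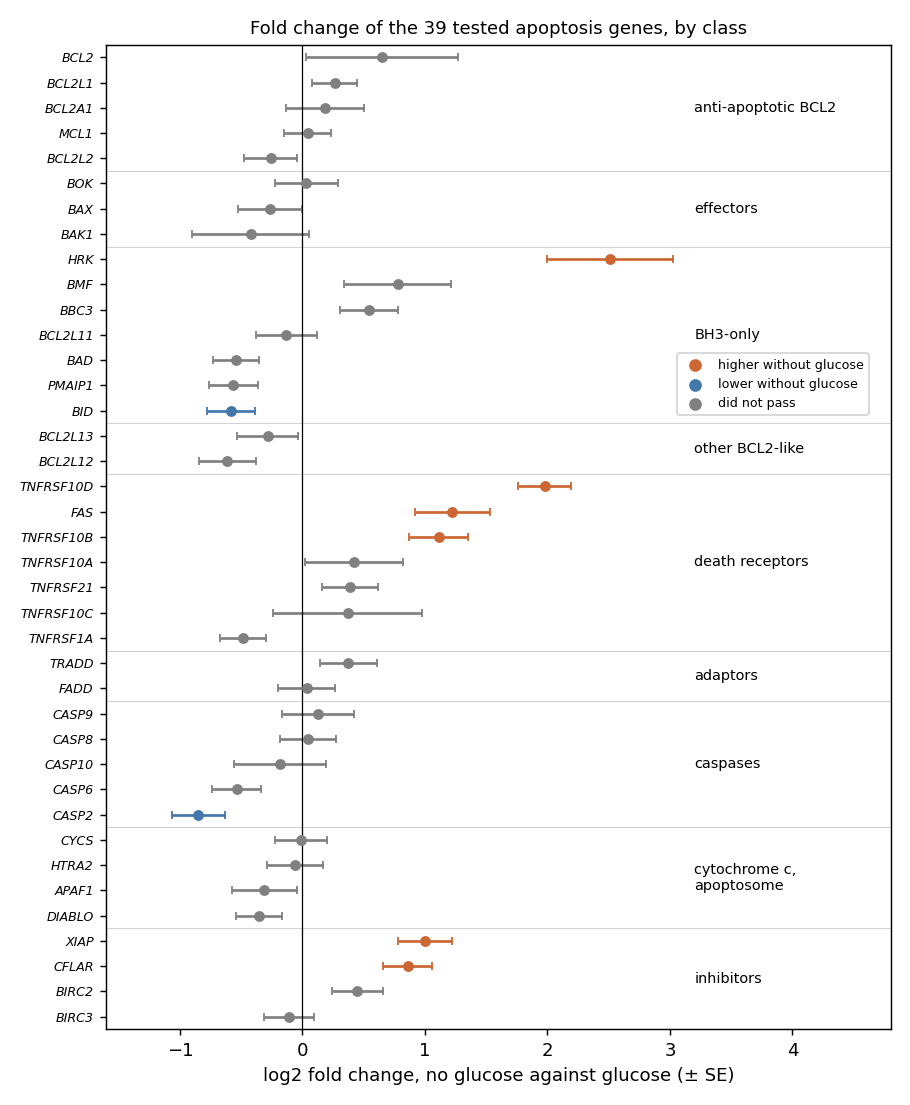
The log2 fold change without against with glucose (x axis) of each of the 39 tested apoptosis genes, grouped by class; bars are ± SE from the edgeR fit, orange genes rose, blue genes fell and grey genes did not pass. The 6 genes that rose lie in 3 classes, and no anti-apoptotic BCL2 gene is coloured.

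Libraries held 6701004 to 14259943 gene counts, and the apoptosis genes took 0.171% to 0.178% of them with glucose and 0.184% to 0.193% without. That share weighs genes by their reads. XIAP, which rose, had 4742 reads over the libraries with glucose and 10982 without. The share therefore does not describe the list as a whole, whose median log2 fold change was 0.03. Replicate 1 with glucose had the fewest counts and stood apart from the other libraries with glucose on the second principal component (18.0% of the variance). The 5 epithelial markers summed to 3116 to 3892 CPM with glucose and 1510 to 1818 CPM without, nearly all of it KRT8 and KRT18. CPM is reads of a gene per 1000000 gene reads after TMM scaling of the library. KRT8 and KRT18 were called lower (log2 fold changes -1.18 and -0.90). EPCAM and CDH1 were scarce, at 2.54 to 8.15 CPM, and did not pass. CDH1 was higher in all libraries without glucose. The 4 A549 detoxification genes were abundant, with sums of 5865 to 6338 CPM with glucose and 4780 to 5796 CPM without. Of 7 alveolar type 2 markers, SFTPA1 and SFTPC were at 0 in every library, and the sum of the 7 was 15.3 to 15.96 CPM with and 27.2 to 32.5 CPM without glucose. LAMP3, 1 of these markers, had 1 read over the libraries with glucose and 269 without and was called higher, though it was tested only through the group without glucose. ABCA3, which carried most of the sum, had 14.2 to 15.25 CPM with glucose and 19.3 to 24.2 CPM without, and did not pass. The 5 immune markers summed to 14.3 to 16.4 CPM with glucose and 24.8 to 39.2 CPM without, with CD3E at 0. Nearly all of that sum was CD68, at 14.1 to 15.8 and 24.8 to 39.2 CPM. CD68 was called higher (log2 fold change 1.04 ± 0.22, edgeR adjusted p = 0.00605). PTPRC had 6 reads with glucose and 0 without, and LYZ 1 and 0. The 4 fibroblast markers summed to 10.7 to 14.1 and 4.21 to 5.37 CPM (COL1A2 and DCN at 0). Nearly all of it was COL1A1, which was called lower (log2 fold change -1.37 ± 0.25, edgeR adjusted p = 0.00263). The 3 endothelial markers summed to 0.211 to 0.847 and 0.190 to 0.306 CPM (VWF at 0). The part of these markers in the results was not tested. In bulk RNA, fewer cells that express a gene and less of its RNA per cell cannot be told apart.

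Among the BH3-only genes, HRK rose, BID fell, 5 did not pass and BIK was not tested, where 11.6% of all genes rose and 10.7% fell. HRK (harakiri, Entrez 8739) is a sensitizer that binds anti-apoptotic BCL2 proteins. Its level was 0.283, 1.92 and 0.774 CPM in replicates 1, 2 and 3 with glucose and 7.68, 5.74 and 4.34 CPM without. Every library without glucose lay above every library with glucose. The log2 fold change was 2.51 ± 0.52 (SE, edgeR adjusted p = 0.00473). Because HRK entered the test only through the group where it is high, its call and its place at the top of the 39 genes are descriptions of these libraries. It rests on 33 reads over the group with glucose and 215 without, a 5.55-fold ratio once scaled for library size (exact 95% interval 3.84 to 8.28). Leaving out replicate 2 with glucose moved the log2 fold change to 3.31, and 12 of 12 alternatives kept the call.

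The 250 bases before the RefSeq start of HRK are shown because this gene had the highest fold change and because they hold the C/EBP-ATF response element TGATGNAAN, the DNA letters that ATF4 and CHOP bind with C/EBP partners. They lie at chr12:116881442-116881691 of GRCh38.p14, on the minus strand, and capitals mark the match, 75 to 67 bases before the start.
HRK: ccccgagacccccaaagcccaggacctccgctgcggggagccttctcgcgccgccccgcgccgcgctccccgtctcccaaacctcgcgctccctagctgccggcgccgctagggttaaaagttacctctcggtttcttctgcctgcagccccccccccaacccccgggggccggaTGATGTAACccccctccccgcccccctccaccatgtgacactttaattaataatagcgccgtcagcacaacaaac
On either strand, these letters stood in 3.13% of 35116 promoters of that length, in 1.66% of 14419 promoters of tested genes, and in 2 of the 31 apoptosis genes with a promoter in the table, HRK and BCL2A1. The shares count promoters, whereas a gene counted once if any of its listed starts matched, so the 2 are unlike measures. A match is a description and shows no binding. BCL2A1, an anti-apoptotic gene, did not pass (log2 fold change 0.18 ± 0.31).

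BID (Entrez 637), which caspase 8 cleaves to engage mitochondria, fell. Its level was 55.5, 53.1 and 62.8 CPM with glucose and 34.0, 37.9 and 42.5 CPM without. The groups did not overlap, and the log2 fold change was -0.58 ± 0.19 (edgeR adjusted p = 0.0483). The call sat at the threshold: it was lost in 8 of 12 alternatives, among them the removal of any library (adjusted p from 0.0552 to 0.154) and a replicate block (adjusted p = 0.108).

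BAD and PMAIP1 had values much like those of BID but did not pass. BAD, a sensitizer controlled by growth factor kinases, had 60.5, 59.5 and 59.1 CPM with glucose and 39.9, 38.3 and 44.8 CPM without (log2 fold change -0.54 ± 0.19, edgeR adjusted p = 0.0550). PMAIP1 (NOXA), which binds MCL1, had 29.9, 33.3 and 26.3 CPM with glucose and 18.1, 21.1 and 21.2 CPM without (log2 fold change -0.57 ± 0.20, edgeR adjusted p = 0.0593). In both genes all libraries without glucose lay below all with it. DESeq2 called both lower (adjusted p = 0.0254 and 0.0449), and BAD also passed with DESeq2 size factors in edgeR (0.0470) and with library totals as scaling (0.0447).

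BBC3 (PUMA), a strong activator of the mitochondrial route, had 69.1, 46.7 and 38.5 CPM with glucose and 76.7, 69.2 and 78.0 CPM without. The groups did not overlap, though replicate 1 with glucose lay just under the lowest library without glucose. BBC3 did not pass (log2 fold change 0.54 ± 0.23, edgeR adjusted p = 0.115). Without replicate 1 with glucose it was called higher (log2 fold change 0.81, adjusted p = 0.0187). BMF, released from the cytoskeleton under stress, had 1.84, 2.02 and 2.11 CPM with glucose and 4.93, 3.59 and 1.84 CPM without, and replicate 3 without glucose lay among the libraries with glucose (log2 fold change 0.78 ± 0.44, did not pass). BCL2L11 (BIM), the broad activator, had a log2 fold change of -0.13 ± 0.25 and overlapping groups.

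The anti-apoptotic genes, which hold BAX and BAK1 in check, gave no call in 5 tested, where 22.3% of all genes passed. So few genes cannot tell the absence of calls from that share. BCL2L1 (BCL-X) had 39.97, 35.5 and 37.7 CPM with glucose and 45.9, 47.1 and 42.9 CPM without, and its groups did not overlap (log2 fold change 0.26 ± 0.18). MCL1, a short-lived protein, had 77.7, 81.6 and 86.0 CPM with glucose and 82.5, 94.5 and 76.1 CPM without, and the groups lay among each other (log2 fold change 0.04 ± 0.19). BCL2L2 (BCL-W) had a log2 fold change of -0.26 ± 0.21 with groups that did not overlap. BCL2 itself was near the detection limit at 0.67 to 2.56 CPM in all libraries (log2 fold change 0.65 ± 0.62), so only a large change could have been seen.

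The effectors BAX, BAK1 and BOK, which form the membrane pore or resemble its makers, had overlapping groups and no call. Of all genes, 22.3% passed and 40.4% had groups that did not overlap. BAX had 13.1, 13.4 and 11.6 CPM with glucose and 10.7, 13.7 and 7.36 CPM without, with replicate 3 lowest (log2 fold change -0.26 ± 0.26). BAK1 and BOK had log2 fold changes of -0.42 ± 0.48 and 0.03 ± 0.25. Of the related proteins, BCL2L12 had all libraries without glucose (21.9 to 37.7 CPM) below all with glucose (44.0 to 54.5 CPM) but did not pass (log2 fold change -0.61 ± 0.23, edgeR adjusted p = 0.0750). BCL2L13, a mitophagy receptor, had a log2 fold change of -0.28 ± 0.25.

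Of 7 death receptor genes 3 rose and 4 did not pass, where 11.6% of all genes rose. Their median log2 fold change was 0.42 and ran from 0.40 without replicate 1 of the no-glucose libraries to 1.04 without replicate 2 of the glucose libraries. TNFRSF10D (DcR2, Entrez 8793) is a TRAIL receptor with a truncated death domain that acts as a decoy. It had 13.0, 12.6 and 16.4 CPM with glucose and 62.7, 45.8 and 57.4 CPM without. The groups were far apart: the lowest library without glucose was above the highest with glucose. The log2 fold change was 1.98 ± 0.22 (edgeR adjusted p = 1.21e-04), a 3.94-fold rise, and it stayed between 1.88 and 2.11 when 1 library was left out.

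TNFRSF10B (DR5, Entrez 8795), the TRAIL receptor that signals death, had 56.4, 39.7 and 31.4 CPM with glucose and 80.7, 100.1 and 93.9 CPM without. It rose with a log2 fold change of 1.11 ± 0.24 (edgeR adjusted p = 0.00601), and the groups did not overlap. The other signaling TRAIL receptor, TNFRSF10A (DR4), had 25.3, 74.8 and 31.0 CPM with glucose and 92.0, 42.0 and 42.3 CPM without. Each group held 1 library well above its other libraries, replicate 2 with glucose and replicate 1 without. TNFRSF10A did not pass (log2 fold change 0.42 ± 0.40), and its value ran from -0.06 without that replicate 1 to 1.05 without that replicate 2. The second decoy, TNFRSF10C (DcR1), had 0.67 to 2.37 CPM in all libraries and did not pass (0.37 ± 0.61). The decoys TNFRSF10C and TNFRSF10D together took 14.4%, 10.4% and 23.0% of the reads of the 4 TRAIL receptors with glucose and 27.4%, 24.8% and 30.2% without, shares that did not overlap. These shares compare read counts from 3' ends, which were not divided by transcript length. TNFRSF10C took only 0.49% to 2.8% of the reads, so the decoy share largely restates the rise of TNFRSF10D. In replicate 2 with glucose, which had the lowest decoy share, TNFRSF10A took 58.5% of the reads.

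FAS (CD95, Entrez 355), the receptor of FAS ligand, had 5.08, 2.88 and 3.80 CPM with glucose and 7.68, 8.49 and 11.0 CPM without. It rose with a log2 fold change of 1.22 ± 0.30 (edgeR adjusted p = 0.0130), and no library with glucose reached those without. FAS no longer passed when the second glucose library (adjusted p = 0.0560) or the third no-glucose library (0.0659) was left out. TNFRSF1A, the main receptor of tumor necrosis factor, had 115.8, 108.7 and 105.8 CPM with glucose and 70.4, 83.1 and 82.5 CPM without, all lower, but it did not pass (log2 fold change -0.48 ± 0.19, edgeR adjusted p = 0.0842). DESeq2 called TNFRSF1A lower (adjusted p = 0.0421). TNFRSF21 (DR6) had a log2 fold change of 0.39 ± 0.23 and overlapping groups.

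A stretch of the FAS promoter is shown because FAS is a reported target of NF-kB, and 1 of its RefSeq starts had a match to that consensus. Capitals mark the NF-kB site, 157 to 148 bases before the start, within chr10:88991264-88991293, plus strand of GRCh38.p14.
FAS NF-kB site: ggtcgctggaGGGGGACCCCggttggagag
Searched on both strands, the NF-kB site stood in 5.21% of all promoters and in 5.99% of promoters of tested genes. It also stood in those of 4 of 31 apoptosis genes (BIRC3, BMF, CFLAR and FAS). A gene with several listed starts counted once if any of them matched, so the count of genes and the shares of promoters are unlike measures. Of these 4 genes, FAS and CFLAR rose and BIRC3 and BMF did not pass.

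**Figure D2:**
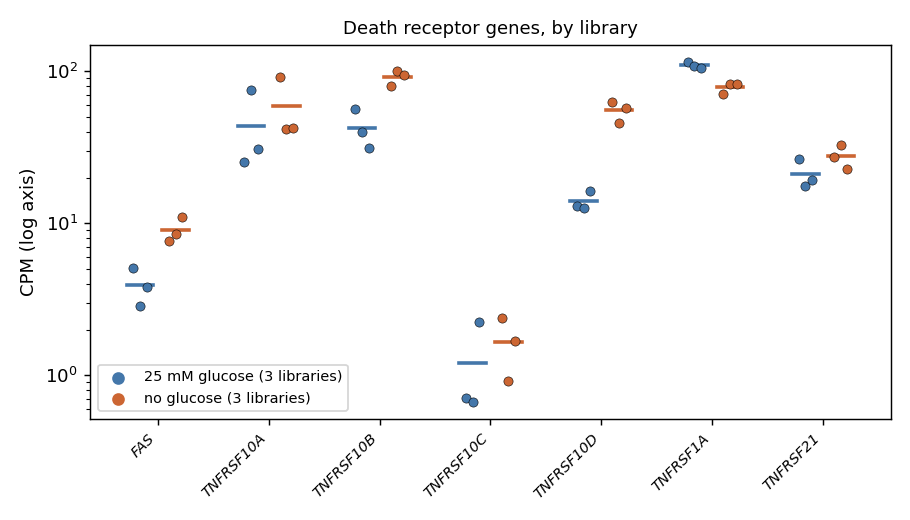
Level in CPM (log axis) of the 7 death receptor genes in each library; points are libraries, horizontal lines are group means of 3. TNFRSF10D and TNFRSF10B separate by group, and TNFRSF10A has 1 high library in each group.

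The adaptors did not pass, where 22.3% of all genes did. FADD, which joins receptors to caspase 8, had 74.4, 47.5 and 42.3 CPM with glucose and 51.7, 59.0 and 57.1 CPM without. Replicate 1 with glucose was the highest of all libraries, and the groups overlapped (log2 fold change 0.03 ± 0.23). TRADD, the adaptor of TNFRSF1A, had a log2 fold change of 0.38 ± 0.24.

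Of 5 caspase genes 1 fell and 4 did not pass, where 10.7% of all genes fell. CASP2 (Entrez 835) encodes an initiator that is activated on a platform of its own and also acts in checkpoint control. It had 34.5, 26.4 and 26.4 CPM with glucose and 13.4, 17.2 and 17.6 CPM without. All libraries without glucose were lower, and the log2 fold change was -0.85 ± 0.22 (edgeR adjusted p = 0.0144). CASP2 no longer passed when the first no-glucose library was left out (adjusted p = 0.0510). CASP6, an executioner, also had groups that did not overlap, with 36.9, 49.4 and 41.1 CPM with glucose and 33.6, 27.1 and 27.4 CPM without, but did not pass (log2 fold change -0.54 ± 0.20, edgeR adjusted p = 0.0742).

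The initiators of the receptor and the mitochondrial route showed overlapping groups. CASP8 had 17.5, 14.3 and 11.9 CPM with glucose and 17.2, 14.1 and 13.7 CPM without (log2 fold change 0.05 ± 0.23). CASP9 and CASP10 had log2 fold changes of 0.13 ± 0.29 and -0.18 ± 0.37.

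The genes for cytochrome c and its partners gave no call in 4, where 22.3% of all genes passed. CYCS had the most reads of the 40 genes, with 314, 435 and 468 CPM with glucose and 356, 425 and 427 CPM without, and overlapping groups (log2 fold change -0.01 ± 0.21). GENCODE lists 40 pseudogenes named after CYCS, and reads that align to several places were not counted, so its level is uncertain. DIABLO (SMAC), which frees caspases from XIAP, had 65.3, 69.8 and 67.1 CPM with glucose and 56.6, 52.7 and 49.0 CPM without. Its groups did not overlap, but it did not pass (log2 fold change -0.35 ± 0.19, edgeR adjusted p = 0.194). APAF1, the apoptosome scaffold, and HTRA2, a mitochondrial protease, had log2 fold changes of -0.31 ± 0.26 and -0.06 ± 0.23.

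Of 4 inhibitor genes 2 rose and 2 did not pass, where 11.6% of all genes rose, and their median log2 fold change was 0.65. XIAP (Entrez 331), which binds and blocks caspases directly, had 146.9, 139.8 and 157.9 CPM with glucose and 326.6, 215.5 and 347.3 CPM without. It rose (log2 fold change 1.0002 ± 0.22, edgeR adjusted p = 0.00713), and replicate 2 was the lowest without glucose yet above all libraries with it. CFLAR (Entrez 8837), the caspase 8 inhibitor FLIP, had 74.4, 71.0 and 64.3 CPM with glucose and 142.6, 105.2 and 132.0 CPM without. It rose with a log2 fold change of 0.86 ± 0.20 (edgeR adjusted p = 0.00978), again with no overlap. Both calls held in 12 of 12 alternatives.

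BIRC2 and BIRC3 (cIAP1 and cIAP2), ubiquitin ligases of the tumor necrosis factor receptor complex, did not pass. BIRC2 had 38.0, 33.7 and 33.2 CPM with glucose and 40.9, 59.1 and 42.6 CPM without, and no overlap (log2 fold change 0.45 ± 0.21, edgeR adjusted p = 0.142). BIRC3 had overlapping groups and a log2 fold change of -0.11 ± 0.20.

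The 250 bases before a RefSeq start of CFLAR are shown for their NF-kB site (capitals, 97 to 88 bases before the start), since CFLAR is a known NF-kB target that rose here. They lie at chr2:201118466-201118715 of GRCh38.p14, on the plus strand.
CFLAR: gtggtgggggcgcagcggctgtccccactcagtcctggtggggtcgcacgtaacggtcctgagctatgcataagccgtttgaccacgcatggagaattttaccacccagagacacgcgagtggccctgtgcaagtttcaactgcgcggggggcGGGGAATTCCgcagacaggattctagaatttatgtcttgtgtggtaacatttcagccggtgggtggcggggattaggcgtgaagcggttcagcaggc
BIRC3, a classical NF-kB target whose promoter also matched, did not pass, as given above. Elsewhere among known NF-kB targets, CXCL1, CXCL8 and TNFAIP3 fell (log2 fold changes -2.28, -1.89 and -1.16), and RELB rose (1.03). Whether NF-kB took part in these changes was not tested. Counts from 3' ends do not show which start a transcript used.

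**Figure D3:**
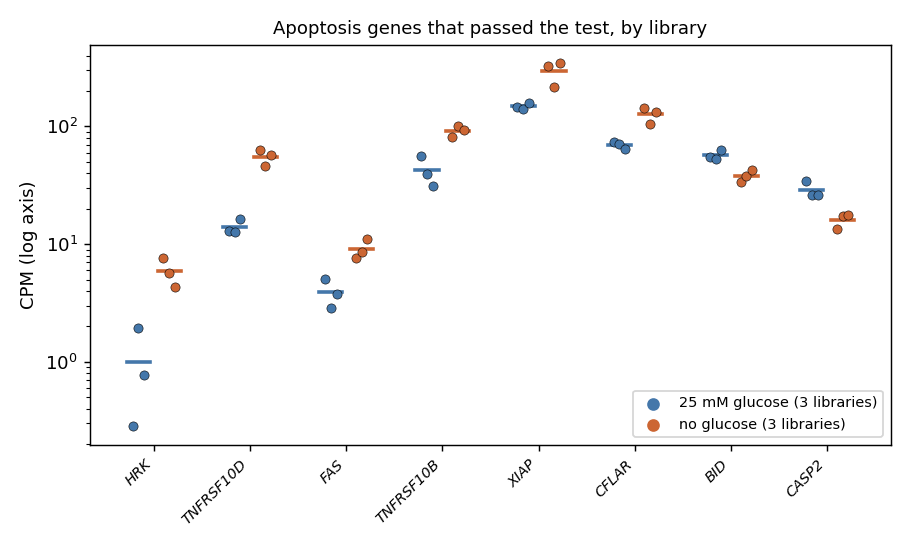
Level in CPM (log axis) of the 8 apoptosis genes that passed, in each library; points are libraries, horizontal lines are group means of 3. In all 8 genes the 3 libraries without glucose lie on 1 side of the 3 with glucose.

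Read counts of opposing or related genes were set side by side within each library, which removes library scaling. The 5 pairs were chosen after the values of their genes were seen, so the ratios are a description with no test. The log2 ratio of CFLAR to CASP8 was 2.28 ± 0.18 with glucose and 3.08 ± 0.18 without (SD, n = 3). XIAP relative to its antagonist DIABLO went from 1.14 ± 0.12 to 2.46 ± 0.40. BCL2L1 relative to BAX went from 1.57 ± 0.15 to 2.14 ± 0.38, and neither gene passed. BBC3 relative to PMAIP1, both BH3-only genes, went from 0.75 ± 0.40 to 1.89 ± 0.19. In these 4 pairs all libraries without glucose had the higher ratio. For XIAP to DIABLO and BBC3 to PMAIP1 this had to follow. In each, the first gene was higher and the second lower in every library without glucose.

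The decoy TNFRSF10D relative to the signaling receptor TNFRSF10B overlapped between the groups. Its log2 ratio was -2.12, -1.66 and -0.94 with glucose and -0.36, -1.13 and -0.71 without. The third glucose library lay above the second no-glucose library, and the group means differed by 0.84.

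**Figure D4:**
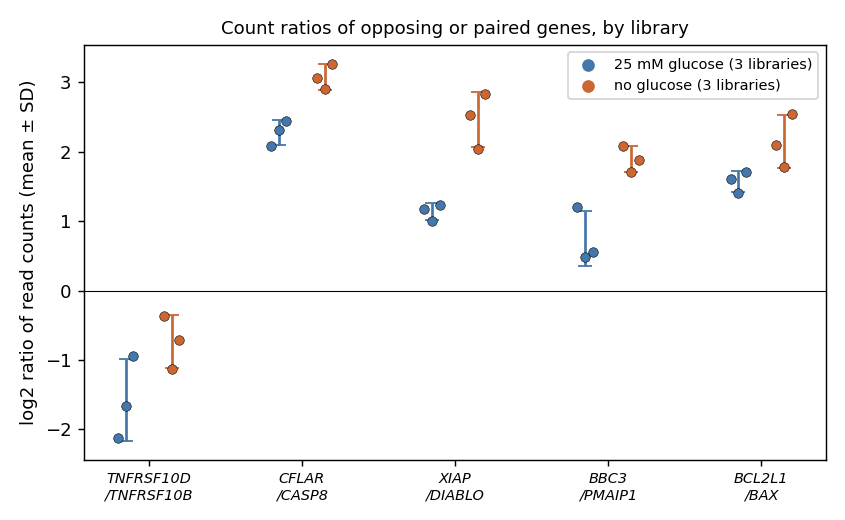
Log2 ratio of read counts (y axis) of 5 gene pairs in each library; points are libraries and bars are the mean ± SD of 3. Ratios of CFLAR to CASP8, XIAP to DIABLO, BBC3 to PMAIP1 and BCL2L1 to BAX separate by group, and TNFRSF10D to TNFRSF10B overlaps.

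Other genes of cell death were read from 8 lists of 59 genes. Of 42 tested, 7 rose and 5 fell, or 28.6%, against 22.3% of all genes tested. All 8 lists were chosen with earlier results of these data known, and 41.7% of the 12 tested upstream regulators passed. The share of 28.6% is therefore a description, from which no excess over all genes can be read. BNIP3L (NIX), a BCL2-related mitophagy receptor, rose from 112.8, 103.1 and 111.3 CPM to 444.9, 276.7 and 385.7 CPM (log2 fold change 1.76 ± 0.22, edgeR adjusted p = 2.65e-04). BIRC5 (survivin), an inhibitor family member that works mainly in mitosis, fell with a log2 fold change of -2.09 ± 0.26. CASP4, an inflammatory caspase, and GSDME, a pore former that executioner caspases cleave, rose by 1.36 ± 0.26 and 1.04 ± 0.22 on the log2 scale. TRAF1, a partner of BIRC2 and BIRC3, rose by 1.56 ± 0.45, and ENDOG, a mitochondrial nuclease, fell with -0.66 ± 0.21. BNIP1, a BH3-like vesicle protein, fell with -0.91 ± 0.25. The calls for TRAF1 and ENDOG were lost with a replicate block (edgeR adjusted p = 0.0677 and 0.0860), and those of TRAF1, ENDOG and BNIP1 on leaving out several libraries in turn (up to 0.0885, 0.129 and 0.0944).

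Regulators that act upstream of the apoptosis genes gave 3 that rose and 2 that fell among 12 tested, where 11.6% of all genes rose and 10.7% fell; the list was chosen with earlier results of these data known. DDIT3 (CHOP), a stress factor known to act on TNFRSF10B, rose from 14.4, 13.9 and 16.1 CPM to 37.8, 57.0 and 50.1 CPM (log2 fold change 1.70 ± 0.22). TRIB3, its stress-induced partner, and FOXO3, a factor that acts on several BH3-only genes, rose by 1.21 ± 0.19 and 0.93 ± 0.20. E2F1, which drives the cell cycle and some apoptosis genes, fell with -2.10 ± 0.26, and the survival kinase gene AKT1 with -0.90 ± 0.22.

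No death ligand gene could be tested. FASLG and TNF were at 0 in every library, TNFSF10 (TRAIL) had 9 reads with glucose and 6 without, and LTA had 0 and 11. CASP5, an inflammatory caspase, had 0 reads with glucose and 14 without, 10 of them in replicate 2. RIPK3, the necroptosis kinase, was at 0 in every library.

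**Figure D5:**
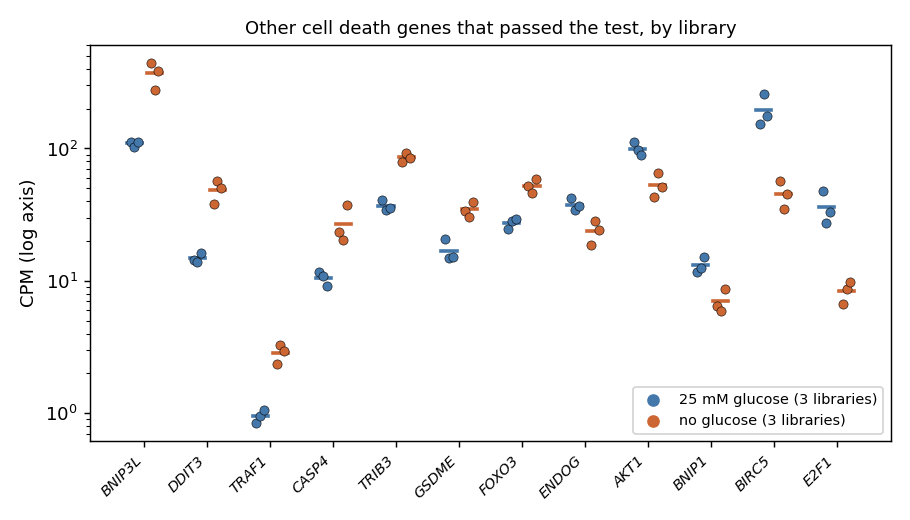
Level in CPM (log axis) of the 12 other cell death and upstream genes that passed, in each library; points are libraries, horizontal lines are group means of 3. BNIP3L, DDIT3, TRAF1, CASP4, TRIB3, GSDME and FOXO3 lie higher without glucose, the other genes lower.

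Some apoptosis genes share sequence with neighbours. In GENCODE, exons of TNFRSF10B overlap RHOBTB2 and exons of FAS overlap ACTA2, each on the other strand, and although the libraries keep the strand, the strand setting of the counting is not given in the sources used here. Neither RHOBTB2 (log2 fold change 0.24 ± 0.35) nor ACTA2 (0.03 ± 0.26) passed. Exons of CFLAR overlap a same-strand gene that has only a clone name, and on the other strand CFLAR-AS1 and the pseudogene IMPDH1P10, which were not analysed here. XIAP has 3 pseudogenes named after it and BCL2L2 a read-through gene. The levels of these genes are less certain.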

How the data were processed

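RNA 3' ends of 3 A549 libraries with and 3 without glucose were sequenced after PCR, with no molecular identifiers mentioned in the labels' protocols, so intervals cover counting error only. Raw counts per Entrez gene were deposited; STAR, HTSeq and hg19 are named in the submitters' processing notes, without versions or annotation. HTSeq's summary lines (32.8% to 36.5% of reads in no feature, 18.4% to 22.2% with several alignments, 0.369% to 0.4185% ambiguous) stayed out of library sizes and tests. Symbols came from RefSeq's gene table of GRCh38.p14, which matched 19178 genes and all 40 apoptosis genes; its gene coordinates were not used, because the builds differ. Promoters are RefSeq's, of GRCh38.p14, read for 31 of the genes; BCL2L2, MCL1, BIK, TNFRSF10A, TNFRSF10B, TNFRSF10C, TNFRSF10D, TRADD and CASP10 were not matched there.

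Groups came from the sample titles. The test was edgeR's quasi-likelihood F test (version 4.0.16, R 4.3.3) on TMM-scaled counts without covariates; filterByExpr (minimum count 10) left 11886 genes, over which p-values were adjusted by Benjamini-Hochberg. SEs were worked back from the F statistic and are approximate. DESeq2 1.42.0, other scalings and filters, a replicate block and the removal of each library were the alternatives. Each of the 40 genes is reported; other cell death genes are named where they passed or where a sentence turns on them. The genes, lists, pairs and motifs were chosen with earlier results of these data known. Libraries of a group differed by more than sampling noise (chi-square per degree of freedom 22.1 to 57.3), so none were merged. A few genes of the lists and a promoter motif are not reported here.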

Additional observations from a re-analysis of the deposited data

How the results depend on the processing

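The calls of TNFRSF10B, TNFRSF10D, CFLAR and XIAP held under all 12 alternatives, and FAS, CASP2 and BID lost theirs as given above. That of HRK also held under all 12. HRK entered the main test only through the group where it is high, so its calls remain descriptions. No apoptosis gene that passed changed sign. The number of apoptosis genes that rose was 5 to 7 throughout. The number that fell was 1 with no filter on low counts, 5 by DESeq2, 1 with a replicate block and 0 to 1 without 1 library. With DESeq2 size factors in edgeR or with library totals, BAD fell in addition to BID and CASP2. BH3-only genes that fell numbered 2 with DESeq2 size factors in edgeR or library totals, 0 with no filter or a replicate block, 3 by DESeq2 and 0 on leaving out any library, and those that rose 1 to 2 without 1 library. DESeq2 called 1 death receptor lower, and 0 to 1 caspase genes fell without 1 library. The median over the apoptosis genes was -0.023 with library totals and -0.0393 to 0.0406 without 1 library. Of all genes, 858 to 1292 rose and 781 to 1232 fell without 1 library, and 3 to 5 of the other cell death genes fell. With a replicate block, no call changed among the apoptosis genes but that of BID. Same-numbered libraries did not deviate together (correlations -0.32, -0.15 and 0.05). Across different numbers the correlations ran from -0.26 to 0.31. With 3 libraries per group, these values cannot show whether libraries of the 2 groups shared a batch.

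Signs changed in 9 genes that did not pass. With library totals, log2 fold changes were -0.0091 for MCL1, -0.023 for BOK, -0.0313 for FADD and -0.0187 for CASP8; with a replicate block CYCS had 0.0058. Without 1 library MCL1 ran from -0.0615 to 0.11, BOK from -0.0917 to 0.18, TNFRSF10A from -0.0562 to 1.05, FADD from -0.12 to 0.31, CASP8 from -0.0873 to 0.19, CASP9 from -0.0381 to 0.32, CASP10 from -0.35 to 0.0513, CYCS from -0.17 to 0.10 and HTRA2 from -0.19 to 0.0517. The cause was not tested. Depth limits the rarest genes: SEs ran from 0.18 for BCL2L1 to 0.62 for BCL2.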
